A study of Mus musculus with 6 samples.

Results

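The miR-99/100 and miR-125 families are 2 groups of microRNAs (miRNAs, short RNAs that bind messenger RNAs and lower their translation or stability) whose genes lie next to each other. Members were all names on the arrays built on the stems miR-99a, miR-99b, miR-100, miR-125a or miR-125b, both arms of each hairpin included and whether or not they were detected. This gave 9 of the 690 miRNA names with probes. The 5p arms were mmu-miR-99a-5p, mmu-miR-99b-5p, mmu-miR-100-5p, mmu-miR-125a-5p and mmu-miR-125b-5p, and the 3p arms were mmu-miR-99b-3p, mmu-miR-125a-3p, mmu-miR-125b-1-3p and mmu-miR-125b-2-3p; the prefix mmu, for the mouse, is left off below. The strands miR-99a-3p and miR-100-3p were not among the names found by this rule and were not analysed here.

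The mouse cells had been sorted to lack the blood cell surface protein CD45 and the endothelial surface protein CD31. All came from SMA-GFP transgenic mice, in which the control region of the smooth muscle actin (SMA) gene drives green fluorescent protein. The GFP-high cells came from wounds 7 days after injury and are called myofibroblasts in the labels; the GFP-low cells came from skin and are called fibroblast-like. Each group had 3 preparations on 1 array each, numbered 3, 4 and 6 for wound and 1, 2 and 5 for skin in the labels. Tissue, injury and GFP level changed together and cannot be told apart, and neither strain, age nor sex was given in the sources used here. The labels do not say whether the preparations came from separate animals or from pools, and what the p-values measure is therefore the spread between preparations, which may be technical.

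Both families are old. miR-99 and miR-100 belong to a family shared by nearly all animals with bilateral symmetry, and miR-125 is the vertebrate relative of lin-4, the first miRNA described, which times larval development in the worm Caenorhabditis elegans. In mammals the genes form clusters of a miR-99/100 gene, a let-7 gene and a miR-125 gene. miR-99 and miR-100 are known to target the growth kinase mTOR in mammalian cells, and miR-125b is known to target the transcript of the tumour suppressor p53 in human cells. let-7, the third cluster partner, is abundant in differentiated cells.

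The mature sequences show which members share a seed, the stretch of bases 2 to 8 that does most of the target recognition, and how closely the paralogs resemble each other. They are RefSeq entries placed on build GRCm38.p6, and all 9 members were found there. The seed is in capitals.
miR-100-5p: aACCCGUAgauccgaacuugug
miR-99a-5p: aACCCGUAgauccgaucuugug
miR-99b-5p: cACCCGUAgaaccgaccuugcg
miR-125b-5p: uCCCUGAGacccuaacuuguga
miR-125a-5p: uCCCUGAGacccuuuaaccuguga
miR-125a-3p: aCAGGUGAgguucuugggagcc
The 3 arms of the miR-99/100 family share 1 seed and the miR-125 5p arms share another, while the 3p arm of miR-125a has a seed of its own. Counted from the 5′ end, miR-100-5p and miR-99a-5p differ at a single position (A16U). miR-99b-5p differs from miR-99a-5p at 4 of 22 positions (A1C, U11A, U16C and U21C). miR-125b-5p and miR-125a-5p share their first 13 bases and are 3 edits apart. Whether a probe for 1 paralog also bound another was not tested.

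The genes fall into 3 clusters, each on the plus strand. On chromosome 9, Mir100 (mature 5p arm at chr9:41531437-41531458), Mirlet7a-2 and Mir125b-1 (chr9:41581940-41581961) lie within the long noncoding RNA gene Mir100hg, and Mir125b-1 starts 50501 bases after Mir100. On chromosome 16, Mir99a (chr16:77598940-77598961), Mirlet7c-1 and Mir125b-2 (chr16:77646279-77646300) span a similar distance of 47337 bases, and no other gene of the table overlaps them. On chromosome 17, Mir99b (chr17:17830194-17830215), Mirlet7e and Mir125a (chr17:17830817-17830840) lie within the protein-coding gene Spaca6, and Mir125a starts 624 bases after Mir99b. The table does not give exons, so exonic and intronic positions were not determined. miR-125b-5p is made identically by Mir125b-1 and Mir125b-2, so its signal sums the chromosome 9 and chromosome 16 clusters.

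The families' 5p arms encoded on chromosomes 9 and 16 and those encoded on chromosome 17 differed in opposite directions. miR-100-5p, miR-99a-5p and miR-125b-5p, encoded on chromosomes 9 and 16, were 3.64-fold, 2.64-fold and 2.64-fold lower in the wound cells. miR-99b-5p and miR-125a-5p, encoded on chromosome 17, were 1.92-fold and 2.58-fold higher; the call of miR-99b-5p was lost under 3 other scalings and with normexp, as given below. Paralogs that share a seed thus differed in opposite directions within both families. All values of 1 group lay outside the range of the other for the 5 tested 5p arms, as they did for 69.8% of all tested miRNAs. miR-125a-3p is left out of that count, because it was tested through its wound arrays alone and its skin values were set to the floor. The 69.8% still holds miRNAs of this kind, miR-125a-3p among them, and a share without them was not computed. By the adjusted p of limma (under 0.05 after Benjamini-Hochberg adjustment over 222 tested miRNAs), 2 of the 9 members were higher in wound, 3 were lower, 1 was tested and did not pass and 3 were not tested. In the same fit 64.9% of all tested miRNAs were called, 44.1% higher and 20.7% lower, so a call alone does not set a member apart. Higher miRNAs made up 68.1% of those calls in the reported scaling, against 40.6% with the percentile taken over all probes, 50.0% with median scaling, 50.0% with no scaling and 51.1% with quantile normalization; the 3 lower members were called in each of these. The median difference over the 6 tested members, miR-125a-3p included, was -0.49 on the log2 scale, against 0.38 over all tested miRNAs. It lies in the gap between the -1.40 of miR-125b-5p and the 0.42 of miR-125a-3p, so it describes no member.

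Levels below are log2 values of probe signals scaled by each array's 75th percentile (taken over detected probes), so that 0 is that percentile and -5.30 is a floor common to all arrays. Signals of different miRNAs cannot be compared as amounts, because each probe binds with its own strength. These are bulk preparations, in which fewer cells carrying a miRNA and less of it per cell cannot be told apart. All arrays were on 1 slide; the 75th percentile was 786 to 1136 intensity units on wound arrays and 1244 to 1772 on skin arrays, and 211 to 233 and 187 to 224 names were well above background. Among markers, the 4 mesenchymal names (miR-199a-3p, miR-199a-5p, miR-199b-5p and miR-214-3p) were well above background on all arrays. Their summed scaled signal was 15.3 to 16.9 in wound and 20.1 to 24.0 in skin. Of these names miR-199a-3p and miR-199b-5p were called lower in wound, and the others did not pass. The 5 blood cell markers other than miR-451a and the 6 striated muscle markers were well above background on no array. The blood cell marker miR-451a was so on no wound array and on some but not every skin array. Of the endothelial pair, miR-126-3p exceeded background on every wound and every skin array and miR-126-5p on none, although the sort was against CD31; their summed scaled signal was 0.0555 to 0.0773 in wound and 0.0363 to 0.0583 in skin, and its part in the results was not tested. Of the 7 keratinocyte names, 2 (miR-203-3p and miR-205-5p) exceeded background on no wound array and on every skin array, and the other 5 on none. The summed scaled signal of those 7 was 0.00505 to 0.0092 in wound and 0.119 to 0.203 in skin; its part in the results below was not tested. The summed scaled signal of the smooth muscle names miR-143-3p and miR-145a-5p was 0.420 to 0.439 in wound and 0.171 to 0.203 in skin. Both names were called higher in wound, and miR-145a-5p lay at the floor on skin arrays 1 and 5.

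**Figure D1:**
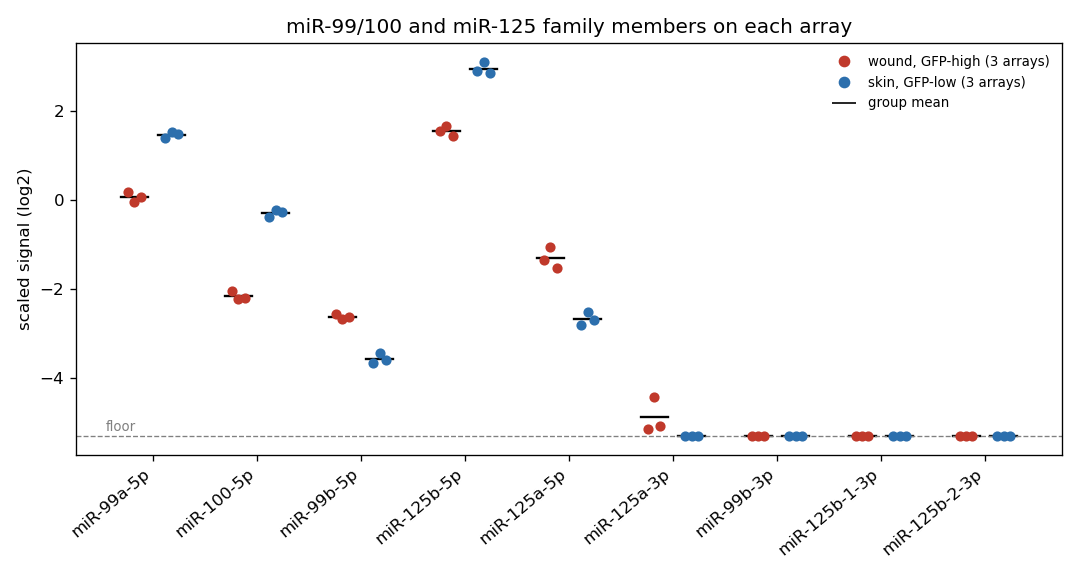
Scaled signal (log2) of the 9 family members on each of the 6 arrays, with wound (red) left of skin (blue), short lines for group means and a dashed line at the floor of -5.30. The 3 wound values of miR-99a-5p, miR-100-5p and miR-125b-5p lie below the skin values, those of miR-99b-5p and miR-125a-5p above them, and 3 of the 3p arms lie at the floor on every array.

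miR-100-5p had the largest decrease of the families in the reported setting; with normexp that of miR-125b-5p was larger (-1.26, against -1.09 for miR-100-5p). Its level was -2.05, -2.23 and -2.21 on wound arrays 3, 4 and 6, against -0.38, -0.23 and -0.27 on skin arrays 1, 2 and 5. Arrays of a group lay close together and the groups were far apart. The means were -2.16 ± 0.10 in wound and -0.29 ± 0.07 in skin (SD, n = 3 each), a difference of -1.87 (SE 0.07, 95% interval -2.04 to -1.69, adjusted p = 1.3e-05 in limma). This was the 9th lowest difference of the 222 tested miRNAs, at -2.25 relative to their median.

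miR-99a-5p, its near-identical paralog on chromosome 16, also fell. It measured 0.18, -0.06 and 0.06 on the wound arrays, against 1.38, 1.53 and 1.48 on the skin arrays, again without overlap. The difference was -1.40 (SE 0.08, 95% interval -1.60 to -1.20, adjusted p = 6.1e-05 in limma).

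miR-125b-5p, the product of both Mir125b genes, measured 1.55, 1.65 and 1.43 on the wound arrays and 2.89, 3.10 and 2.84 on the skin arrays. Every wound value was below every skin value. Its difference of -1.40 (SE 0.10, 95% interval -1.65 to -1.15, adjusted p = 0.00014 in limma) equalled that of miR-99a-5p to 2 decimals.

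From the chromosome 17 cluster, miR-125a-5p measured -1.35, -1.06 and -1.53 on the wound arrays, against -2.82, -2.52 and -2.71 on the skin arrays. The spread between wound arrays was wider than for the members that fell (SD 0.24), but the groups did not overlap. The difference was 1.37 (SE 0.15, 95% interval 0.98 to 1.75, adjusted p = 0.00084 in limma). It lay 0.99 above the median difference.

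miR-99b-5p, its neighbour in the same cluster, measured -2.57, -2.68 and -2.63 on the wound arrays and -3.66, -3.43 and -3.60 on the skin arrays. The difference was 0.94 (SE 0.07, 95% interval 0.75 to 1.13, adjusted p = 0.00023 in limma), or 0.56 above the median difference. The call depended on how arrays were scaled: the difference was 0.53 and passed with median scaling, but 0.25, 0.30 and 0.36 with the percentile of all probes, quantile normalization and no scaling did not pass (adjusted p = 0.29, 0.11 and 0.15 in limma). In the setting called normexp it was 0.06 (adjusted p = 0.16 in limma). That setting combined median spot signals, normexp background correction with an offset of 50 and quantile normalization, without the floor. Which of these steps moved the value was not tested. The difference was positive in each of these settings.

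**Figure D2:**
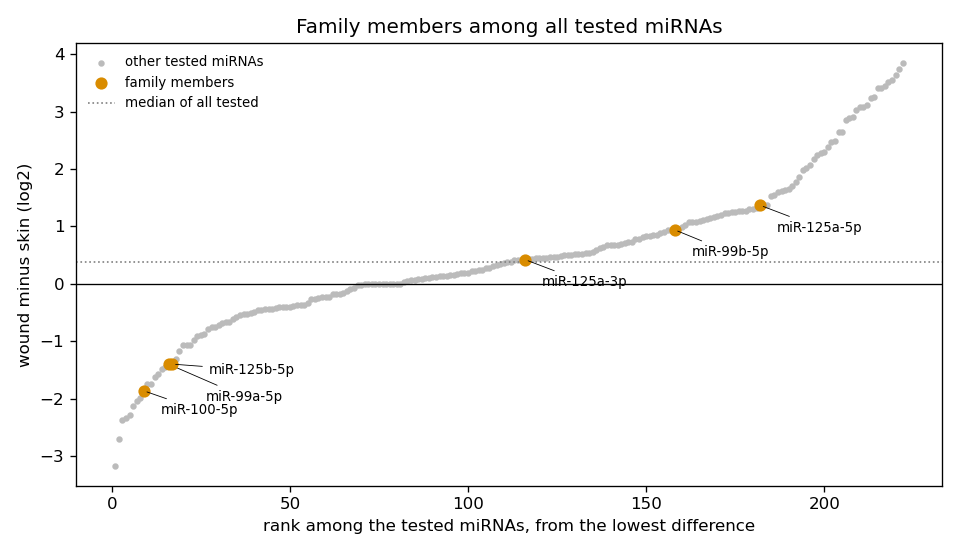
Wound minus skin differences (log2) of the 222 tested miRNAs ordered from the lowest, with the 6 tested family members in orange and a dotted line at the median of 0.38. miR-100-5p, miR-99a-5p and miR-125b-5p rank 9th, 16th and 17th from the lowest, while miR-99b-5p and miR-125a-5p rank 158th and 182nd and miR-125a-3p, at 116th, lies near the median.

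The 4 called members other than miR-99b-5p kept their direction and call in each of 19 tests under other settings of scaling, background, probe summary, floor, filter, variance model, slide row and left-out arrays. The exception among all settings was the authors' deposited table read by its column numbers. That reading mixes arrays of both groups in each set and is described with the processing. Over those alternatives, single probes and slide rows included, miR-100-5p ranged from -2.55 to -1.09, miR-125b-5p from -2.09 to -1.25 and miR-99a-5p from -2.09 to -1.06. miR-125a-5p ranged from 0.40 with normexp to 1.71 with its dimmer probe. The slide held arrays of both groups in each of its 2 rows. Within row 1 (wound 3 against skin 1 and 2) the differences were -1.74 for miR-100-5p, -1.28 for miR-99a-5p, -1.45 for miR-125b-5p, 1.31 for miR-125a-5p and 0.98 for miR-99b-5p. Within row 2 (wound 4 and 6 against skin 5) they were -1.94, -1.48, -1.30, 1.41 and 0.95 in the same order. With the row in the fit all 5 passed, at an adjusted p of 0.0044 or less in limma.

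**Figure D3:**
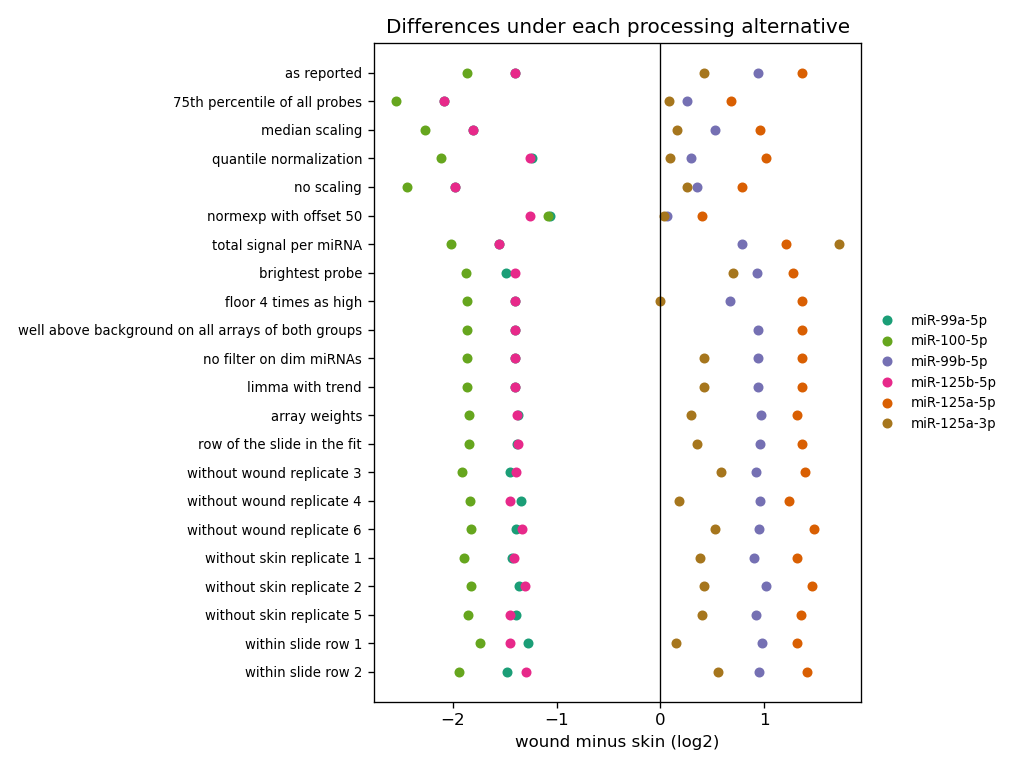
Wound minus skin difference (log2) of the 6 tested members under the reported setting and each alternative other than the authors' table and single probes; points of miR-99a-5p and miR-125b-5p often coincide. The 3 members from chromosomes 9 and 16 stay between -2.55 and -1.06, miR-125a-5p stays above 0, and miR-99b-5p and miR-125a-3p approach 0 with normexp. miR-125a-3p is also near 0 with the percentile of all probes (0.09) and quantile normalization (0.09), and at 0 with a floor 4 times as high.

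Each 5p member was read by a pair of probes of 10 spots each, and both probes of a member gave the same direction. For miR-100-5p the probes differed by -1.83 and -1.88 between the groups and for miR-125b-5p by -1.42 and -1.40. The miR-125b-5p probes agreed although their brightness was far apart: the dimmer averaged -1.52 in wound and -0.09 in skin, and the brighter 2.45 and 3.85 in the same order. miR-99b-5p gave 0.96 and 0.93. The probes of miR-99a-5p (-1.49 and -1.14) and miR-125a-5p (1.71 and 1.28) were less alike.

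The 3p arms, usually the less abundant strands of these hairpins, were dim. miR-125a-3p measured -5.15, -4.42 and -5.08 on the wound arrays and lay at the floor on all skin arrays. The difference of 0.42 did not pass (SE 0.21, 95% interval -0.12 to 0.96, adjusted p = 0.14 in limma), and the floor compressed it. It was tested because 1 of its 4 probes was well above background on all wound arrays; the same probe was so on 2 of the 3 skin arrays, and its raw signal was 31.1, 56.8 and 43.6 intensity units in wound against 42.2, 26.3 and 35.0 in skin. Those ranges overlap before scaling. The difference passed when the brightest probe alone was used (0.70, adjusted p = 0.0046), with the scanner software's total signal (1.72, adjusted p = 0.01) and without wound array 4, the brightest of them (0.18, adjusted p = 0.016 in limma). miR-99b-3p was well above background on no wound array and, with 1 of its 4 probes, on 1 skin array. miR-125b-1-3p and miR-125b-2-3p, which would tell the Mir125b genes apart, did not exceed background on any of the 6 arrays, so the shares of the chromosome 9 and chromosome 16 genes in miR-125b-5p cannot be told from these arrays.

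The let-7 partners were examined as the third product of each cluster. let-7e-5p from chromosome 17 measured 0.10, 0.29 and 0.11 on the wound arrays against -0.40, -0.11 and -0.22 on the skin arrays. Its difference of 0.41 passed (SE 0.10, adjusted p = 0.016 in limma). That lay 0.03 above the median difference, and it became -0.17 with no scaling, -0.00042 with median scaling and -0.28 with the all-probe percentile, none of which passed; with quantile normalization and normexp it was 0.44 and 0.35 and passed. It also missed the threshold without wound array 3 and without skin array 1 (adjusted p = 0.052 and 0.065 in limma), with total signals (0.25, adjusted p = 0.21) and with no filter on dim miRNAs (adjusted p = 0.089), so 12 of 19 tests passed. let-7c-5p, encoded on chromosome 16 and by Mirlet7c-2 elsewhere, measured 2.61, 2.69 and 2.52 in wound and 3.36, 3.58 and 3.54 in skin, a difference of -0.88 (SE 0.08, adjusted p = 0.00038 in limma). let-7a-5p, encoded on chromosome 9 and by Mirlet7a-1 elsewhere, measured 2.49, 2.65 and 2.44 in wound and 2.86, 3.12 and 2.96 in skin. It differed by -0.45 (SE 0.09, adjusted p = 0.0092 in limma), a call lost without wound array 3 (adjusted p = 0.062) and with no filter on dim miRNAs (adjusted p = 0.056).

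Of the 16 let-7 and miR-98 names on the arrays, 9 were tested, of which 6 were lower in wound, let-7e-5p alone was higher and 2 did not pass, with a median difference of -0.40. let-7b-5p differed by -0.76 and miR-98-5p by -0.40, while let-7d-5p (-0.07) and let-7i-5p (0.07) did not pass. The 2 let-7 partners encoded on chromosomes 9 and 16, and also elsewhere, were lower like the members there. So were let-7b-5p and miR-98-5p, which are not part of these clusters, so the fall cannot be assigned to a cluster. let-7a-5p differs at a single position from let-7c-5p (A19G) and at a single position from let-7e-5p (U9G). Whether a probe for 1 of these also bound another was not tested. The difference of let-7e-5p had the sign of the chromosome 17 members except in the 3 scalings named above.

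**Figure D4:**
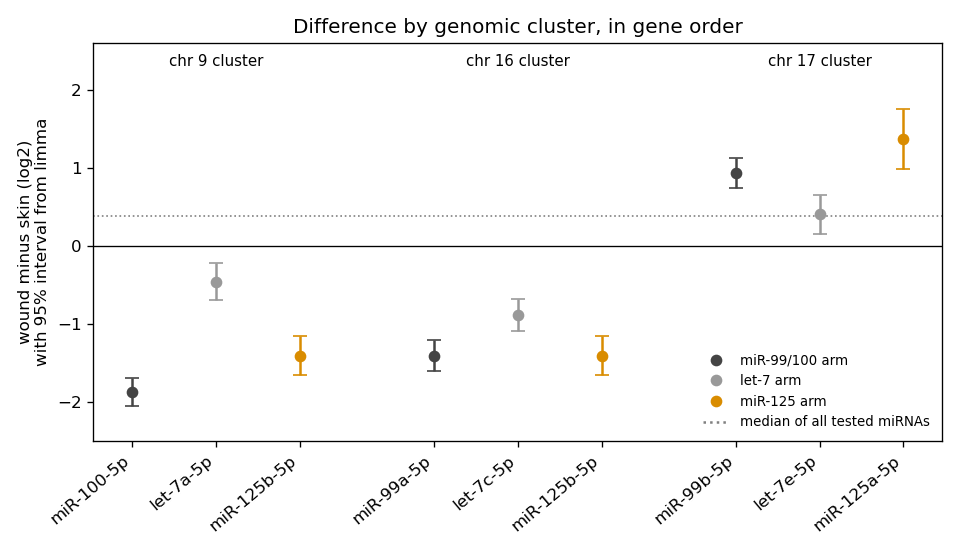
Wound minus skin difference (log2) with its 95% interval from limma for the 5p arms of each cluster in gene order; miR-125b-5p is drawn in both clusters that encode it, and let-7a-5p and let-7c-5p are also encoded elsewhere. The members on chromosomes 9 and 16 lie between -1.87 and -1.40, those on chromosome 17 at 0.94 and 1.37, and each let-7 partner lies closer to 0 than its neighbours.

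To compare members with each other, the difference between log2 signals of a pair was taken within each array, where the scaling of the array cancels, and then compared between groups. Only the change of such a difference is read, not its size. Within a setting that change equals the first miRNA's wound minus skin difference less that of the second. It therefore restates the values of single miRNAs and is no separate evidence. For 14 pairs an exact two-sided permutation test over the arrays was run, whose smallest possible p is 0.1 with 3 against 3 arrays, so that no pair could pass 0.05. The groups did not overlap in 13 of the 14 pairs, each with p = 0.1 in the exact permutation test (0.11 after Benjamini-Hochberg adjustment over the 14). Among these 13 is miR-125a-5p minus miR-125a-3p, which rests on skin values of miR-125a-3p set to the floor. Over all pairs of the 222 tested miRNAs the groups did not overlap in 73.6%, so the lack of overlap in a pair does not set it apart. That share also holds pairs with values set to the floor.

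Among the 14 pairs, the 3 that set a chromosome 17 member against a seed-sharing paralog from chromosome 9 or 16 changed most in the reported setting. miR-125a-5p minus miR-125b-5p was -2.90, -2.71 and -2.96 on the wound arrays and -5.70, -5.62 and -5.55 on the skin arrays, a change of 2.77. miR-99b-5p minus miR-100-5p was -0.52, -0.45 and -0.43 in wound and -3.29, -3.19 and -3.33 in skin, a change of 2.80. For miR-99b-5p minus miR-99a-5p the wound arrays gave -2.75, -2.62 and -2.70 and the skin arrays -5.05, -4.96 and -5.09, a change of 2.34. In each of these pairs the gap between the groups was several times the spread within them. Over the alternatives other than the authors' table, with quantile normalization and normexp among them, these changes ranged from 1.66 to 2.82, from 1.15 to 2.89 and from 1.12 to 2.43, with the same sign in each.

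Within clusters and between chromosomes 9 and 16 the changes were smaller. miR-99a-5p minus miR-125b-5p was -1.37, -1.71 and -1.37 in wound and -1.50, -1.58 and -1.36 in skin; the change of -0.003 was far within the spread (SD 0.20 in wound and 0.11 in skin, p = 1 in the exact permutation test). miR-100-5p minus miR-99a-5p was -2.23, -2.17 and -2.27 in wound and -1.76, -1.76 and -1.76 in skin, a change of -0.46. The 3 skin arrays agreed in this difference to an SD of 0.0026, although the arrays differed in brightness. This change was -0.03 with normexp and -0.88 with quantile normalization. miR-100-5p minus miR-125b-5p changed by -0.47, which turned to 0.17 with normexp and was -0.87 with quantile normalization and -0.29 within slide row 1. In the chromosome 17 cluster, miR-125a-5p minus miR-99b-5p was 1.22, 1.62 and 1.10 in wound and 0.85, 0.91 and 0.90 in skin, a change of 0.43. It was 0.28 without wound array 4, 0.72 with quantile normalization and 0.69 with a floor 4 times as high.

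**Figure D5:**
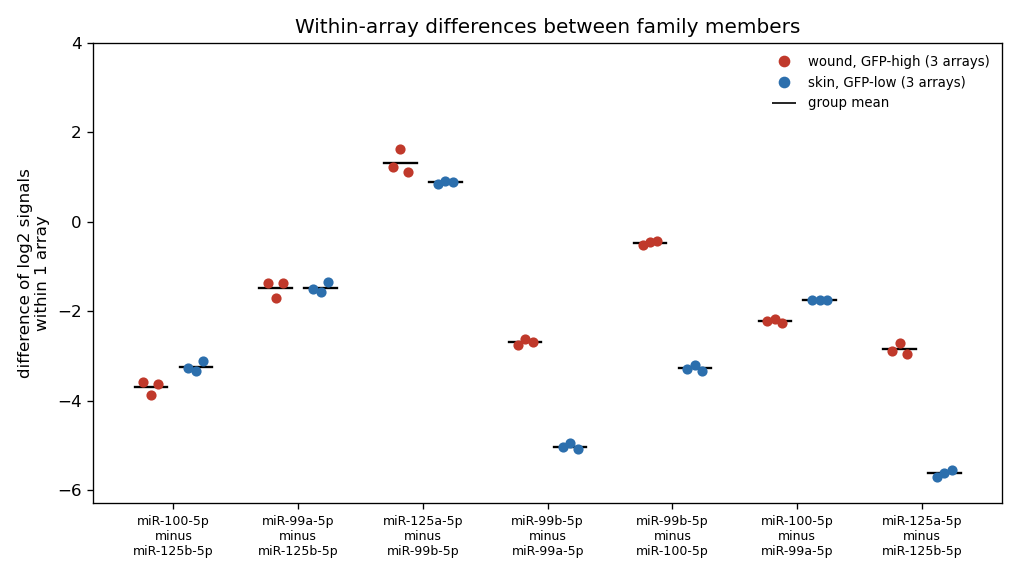
Difference between the log2 signals of 2 family members within each array, for the pairs of 1 cluster (first 3) and the paralogs (last 4), with wound (red) left of skin (blue) and short lines for group means. The 3 pairs that set a chromosome 17 member against a paralog from chromosome 9 or 16 are 2.34 to 2.80 higher in wound, the other pairs change by less than 0.5.

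Set against the let-7 of their clusters, the family members differed further from 0 in each case in the reported setting. miR-100-5p minus let-7a-5p was lower by 1.41 in wound (-4.68 ± 0.17 in wound and -3.27 ± 0.07 in skin, SD, n = 3 each) and miR-125b-5p minus let-7a-5p by 0.95 (-0.98 ± 0.03 and -0.03 ± 0.07). miR-99a-5p and miR-125b-5p minus let-7c-5p changed by -0.52 each. On chromosome 17, miR-125a-5p minus let-7e-5p changed by 0.96 (0.05 with normexp), while the change of 0.53 for miR-99b-5p minus let-7e-5p turned sign with quantile normalization (-0.15) and normexp (-0.28). The arms of miR-125a could not be compared firmly: the change of 0.95 for the 5p minus the 3p arm rests on skin values at the floor, and with total signals it was -0.51.

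Beyond the families, miR-351-5p is the one other array name in the sequence table with the miR-125 seed (534 of the 690 array names had a sequence there). It lies on chromosome X and shares its first 8 bases with miR-125b-5p, but differs from it by 10 edits.
miR-351-5p: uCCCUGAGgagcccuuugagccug
It was well above background on 1 of the 3 wound arrays with 1 of its 4 probes and on no skin array, and was not tested. The Hox cluster miRNAs miR-10a-5p and miR-10b-5p are 3 and 4 edits from miR-100-5p and have another seed.
miR-10b-5p: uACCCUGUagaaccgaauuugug
miR-10b-5p measured -2.48, -2.69 and -2.54 in wound and 0.43, 0.77 and 0.59 in skin, the lowest difference of all tested miRNAs (-3.17, SE 0.11, adjusted p = 8.7e-06 in limma), whereas miR-10a-5p did not pass in the reported scaling (-0.42, adjusted p = 0.18 in limma) but passed, with the same sign, under 5 alternatives.

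The miRNAs whose values over the 6 arrays, centred on their own mean, lay closest to a member were found among the tested names outside the families. Likeness is the root mean square difference in log2. For miR-125b-5p and miR-99a-5p the closest was miR-181b-5p (0.08 and 0.09; -4.03 ± 0.10 in wound and -2.71 ± 0.14 in skin). Next to miR-125b-5p came miR-26a-5p and miR-30c-5p (0.12 each), and next to miR-99a-5p came miR-23a-3p (0.13) and miR-30c-5p (0.14). miR-100-5p was nearest to miR-181c-5p (0.10), which lay at the floor in wound, then to miR-26b-5p and miR-29a-3p (0.12 each). miR-125a-5p was nearest to miR-28a-5p (0.09; -3.08 ± 0.11 in wound and -4.45 ± 0.15 in skin), then to miR-34c-5p (0.10) and miR-31-5p (0.11), both at the floor in skin. miR-99b-5p was nearest to miR-378a-3p (0.11), then to miR-455-5p and miR-369-5p (0.12 each), the last a pair at the floor in skin. These are descriptions over 6 arrays that share their scaling, and a value at the floor carries no order within its group.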

How the data were processed

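RNA of 6 sorted preparations was measured on Agilent miRNA arrays in 1 colour (Cy3), per the labels' protocols. The series' design text describes a messenger RNA labelling kit. Scans were quantified by Agilent Feature Extraction, version 10.7.3.1, per the file headers. Scanner output, as deposited, is linear intensity after background subtraction, without normalization between arrays. A second deposited file has log2 values with no method stated in the sources used here. Its column medians run from -12.53 to -11.76; the offset's origin stays unknown. Over 656 shared names every column equals 1 array's total signal in log2 minus a constant, but no column's number matches the number in that array's title. Columns 1 to 6 equalled, in order, wound arrays 3, 4 and 6 and skin arrays 1, 2 and 5, so the columns were sorted by group. Groups follow the array titles, and the table served as an alternative only.

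Processed signals were averaged over spots without outlier flags and scaled by each array's 75th percentile (probes well above background on every array). The probe values of each miRNA were then averaged, raised to a floor of 0.0253 and taken to log2. A probe counted as well above background where more than 50% of spots carried that flag; miRNAs with such a probe on all 3 arrays of at least 1 group were tested (222 of 690). The number of arrays limits the precision. limma 3.58.1 (R 4.3.3, lmFit and eBayes, two-sided) gave differences and Benjamini-Hochberg adjusted p-values; 0 spots were saturated. The code was tested on simulated data; a few simulated 4-fold changes with an unusually large spread were missed, and the criterion for passing was widened to allow these after the first run. Sequences and gene order came from RefSeq tables of GRCm38.p6. Named miRNAs are all members, the let-7 partners and family, names with a shared seed, miR-10 and, for each called 5p member, the 3 closest patterns. Members, lists and tests were chosen with earlier results of these data known; the single-probe values were added after these data were seen.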

Additional observations from a re-analysis of the deposited data

How the results depend on the processing

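No paired analysis was possible because the labels number the samples 1 to 6 once, with no number shared by the groups. Wound and skin arrays were compared under 19 alternatives that give a test, and within each slide row and for single probes without one. Among all tested miRNAs, 98 were higher and 46 lower; the higher ones numbered 52 with the percentile of all probes, 54 with no scaling, 44 with a floor 4 times as high and 59 when both groups had to be well above background, and the lower ones 76 with the percentile of all probes. Those scalings moved the median of all tested miRNAs by -0.57, -0.38 (median scaling and quantile normalization) and -0.46 (no scaling), and the share of higher among the calls was 40.6%, 50.0%, 51.1% and 50.0%, against 68.1%. Leaving out 1 array gave 83 to 92 higher and 38 to 49 lower. Of the members, 3 were lower under all 19, and 2 were higher in the reported setting. With an array left out 2 to 3 were higher, and with total signals and with the brightest probe 3 were. With the percentile of all probes, quantile normalization, no scaling and normexp 1 was, since miR-99b-5p did not pass (0.25, 0.30, 0.36 and 0.0633). miR-125a-3p (0.42) passed with total signals (1.72), with its brightest probe (0.70) and over the left-out arrays ranged from 0.18 to 0.59; with a floor 4 times as high it lay at the floor on every array. Among the members' untested values, those within slide row 1 for miR-100-5p (-1.74) and miR-99a-5p (-1.28) and those of 1 probe of miR-125a-5p (1.71) and of miR-99a-5p (-1.14) moved by more than the spread between arrays. The tested values of the called members moved further under other scalings and normexp, over the ranges given in the report. let-7e-5p turned to -0.17 with no scaling, -0.00042 with median scaling and -0.28 with the all-probe percentile. Of the within-array differences, miR-100-5p minus miR-125b-5p turned to 0.17 with normexp, miR-125a-5p minus miR-125a-3p to -0.51 with total signals, and miR-99b-5p minus let-7e-5p to -0.15 with quantile normalization and -0.28 with normexp. The causes were not tested.

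Read by its column numbers, the authors' table took the values of wound array 6 and skin arrays 1 and 5 as wound. It took those of wound arrays 3 and 4 and skin array 2 as skin. Each set thus mixes arrays of both groups, so its result does not test the difference between wound and skin. In that reading 0 miRNAs and 0 members were called in limma. The values there were 0.79 for miR-100-5p, -0.20 for miR-125a-3p, -0.47 for miR-125a-5p, 0.52 for miR-125b-5p, 0.67 for miR-99a-5p, -0.17 for miR-99b-5p, 0.24 for let-7a-5p, 0.42 for let-7c-5p, -0.0228 for let-7e-5p, 0.12 for miR-10a-5p and 1.20 for miR-10b-5p. The within-array differences were 0.27 and 0.12 for miR-100-5p minus miR-125b-5p and minus miR-99a-5p, -0.30 for miR-125a-5p minus miR-99b-5p, -0.84 and -0.96 for miR-99b-5p minus miR-99a-5p and minus miR-100-5p, and -0.99 and -0.27 for miR-125a-5p minus miR-125b-5p and minus miR-125a-3p. Against let-7a-5p they were 0.55 for miR-100-5p and 0.28 for miR-125b-5p, against let-7c-5p 0.25 for miR-99a-5p and 0.10 for miR-125b-5p, and against let-7e-5p -0.15 for miR-99b-5p and -0.45 for miR-125a-5p.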
